A study of Mus musculus with 7 samples.

Results

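The genes described here encode the working parts of the lysosome, the acidic organelle in which cells break down protein, lipid and carbohydrate. They are 46 genes chosen by symbol from the 21861 rows of a gene count table: 12 cathepsins and related proteases, 6 glycosidases, 4 lipid enzymes or carriers, 7 lysosomal membrane proteins, 14 subunits or accessory proteins of the proton pump, the granulin precursor Grn, and the transcription factors Tfeb and Tfe3. The tissue was retinal pigment epithelium (RPE) of aged mice, taken for RNA sequencing 12 weeks after they received an adeno-associated virus (AAV) vector. In 3 libraries the vector carried GFP, a fluorescent protein used as the control (AAV-GFP), and in 4 it carried GSTA4, a glutathione transferase that conjugates the lipid peroxidation product 4-hydroxynonenal (AAV-GSTA4). All 7 libraries therefore came from aged, vector-treated eyes, and untreated or young RPE was not analysed here. The strain, the exact age, the vector's promoter, serotype and dose, and whether a library came from 1 animal or from pooled tissue are not given in the sources used here. Nothing in the labels says that the libraries came from separate animals, so the p-values measure only the spread between these samples.

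The RPE is a single layer of pigmented cells that every day engulfs the shed tips of photoreceptor outer segments and digests them in its lysosomes. The hydrolases work at acid pH, which the vacuolar proton pump (V-ATPase) sets up: its V1 sector hydrolyses ATP on the cytosolic face and its V0 sector passes protons through the membrane. Many lysosomal genes are known targets of TFEB and TFE3, which bind short promoter motifs built around CACGTG.

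That motif was searched for in RefSeq promoters (GRCm38.p6, 250 bases before to 50 after the transcription start), which were found for 40 of the 46 genes. Some genes had more than 1 promoter, and a gene was counted if any of its promoters held the motif. The 6 bases CACGTG, which read the same on both strands, occurred in 14 of the 40 genes (35%), against 8.09% of all 27025 genes with a promoter. The longer palindrome TCACGTGA, which contains CACGTG, occurred in 7 of the 40 (17.5%) against 1.12% of all. The promoters of the 14 genes with CACGTG held 22 copies in all, and 6 of these genes had more than 1. The sequences below show the copies in hydrolase promoters whose transcript values are described further on, with those of Cln3 and Mcoln1, whose log2 fold changes were 0.12 and -0.10. CACGTG is in capitals and each window of 30 bases is on the gene's own strand, 5′ to 3′. A match describes the letters only and is no evidence that a factor was bound.
Ctsa, first copy, chr2:164833749-164833778 (+): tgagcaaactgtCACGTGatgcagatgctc
Ctsa, second copy, chr2:164833766-164833795 (+): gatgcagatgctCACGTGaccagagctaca
Glb1, chr9:114401018-114401047 (+): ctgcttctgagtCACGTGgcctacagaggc
Gaa, chr11:119267811-119267840 (+): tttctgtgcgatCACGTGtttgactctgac
Ctsd, second copy, chr7:142387908-142387937 (-): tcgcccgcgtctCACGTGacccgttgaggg
Cln3, second copy, chr7:126583340-126583369 (-): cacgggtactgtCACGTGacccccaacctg
Mcoln1, second copy, chr8:3500462-3500491 (+): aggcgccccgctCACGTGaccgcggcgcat

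The promoter of Lamp1, which encodes an abundant glycoprotein of the lysosomal membrane, held 4 copies, starting 61, 45, 28 and 15 bases before the start site. It is shown, as the 250 bases before the start, because it held the most copies of any promoter of the 40 genes.
Lamp1, chr8:13158911-13159160 (+): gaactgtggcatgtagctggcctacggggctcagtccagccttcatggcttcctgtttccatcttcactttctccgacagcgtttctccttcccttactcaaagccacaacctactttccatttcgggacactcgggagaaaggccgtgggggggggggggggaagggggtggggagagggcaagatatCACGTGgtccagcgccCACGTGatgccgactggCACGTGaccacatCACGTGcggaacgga

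Across the 46 genes, none passed the adjusted threshold (edgeR quasi-likelihood test, Benjamini-Hochberg adjustment over all 15075 genes tested), and the share of all genes that did was 0%, with a smallest adjusted p of 0.363. At an unadjusted p under 0.05, 7 of the 46 were higher with AAV-GSTA4 (15.2%), against 5.27% of all genes, and 0 were lower, against 6.63% of all genes. The 7 were Glb1, Gaa, Hexa, Ctsa, Psap, Lipa and Atp6ap1. DESeq2 and limma-voom also called 0 of the 46 after adjustment, although DESeq2 called 1.75% of all genes. The estimate was above 0 for 39 of the 46 (84.8%) against 44.6% of all genes, and the median log2 fold change was 0.38 against -0.07. Every AAV-GSTA4 library lay above every AAV-GFP library for 11 of the 46 (23.9%) against 6.44% of all genes, and below for 1, Tfeb, against 5.61%. All 46 passed the filter on low counts, and the lowest count of any of them in any library was 122. Of the 40 genes with a promoter, the 14 with CACGTG included 3 at an unadjusted p under 0.05 (median estimate 0.25), and the 26 without it included 4 (median estimate 0.44).

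**Figure D1:**
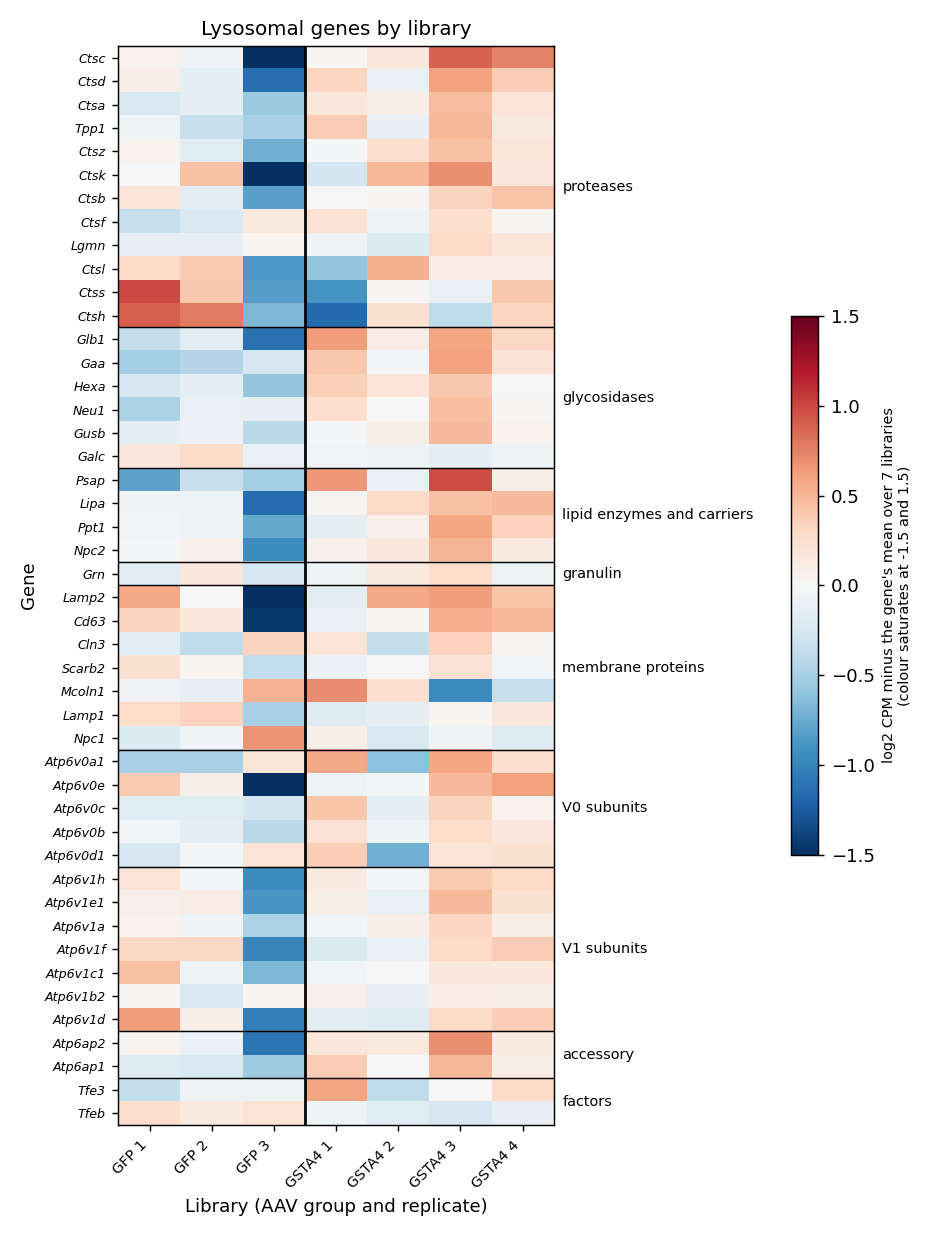
Level of each of the 46 lysosomal genes (rows, grouped by role) in the 7 libraries (columns), as log2 CPM (counts scaled to a common library total) relative to the gene's mean over the libraries. AAV-GFP replicate 3 was the lowest of the 7 for 30 of the 46 genes, and AAV-GSTA4 replicate 3 the highest of its group for 29.

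**Figure D2:**
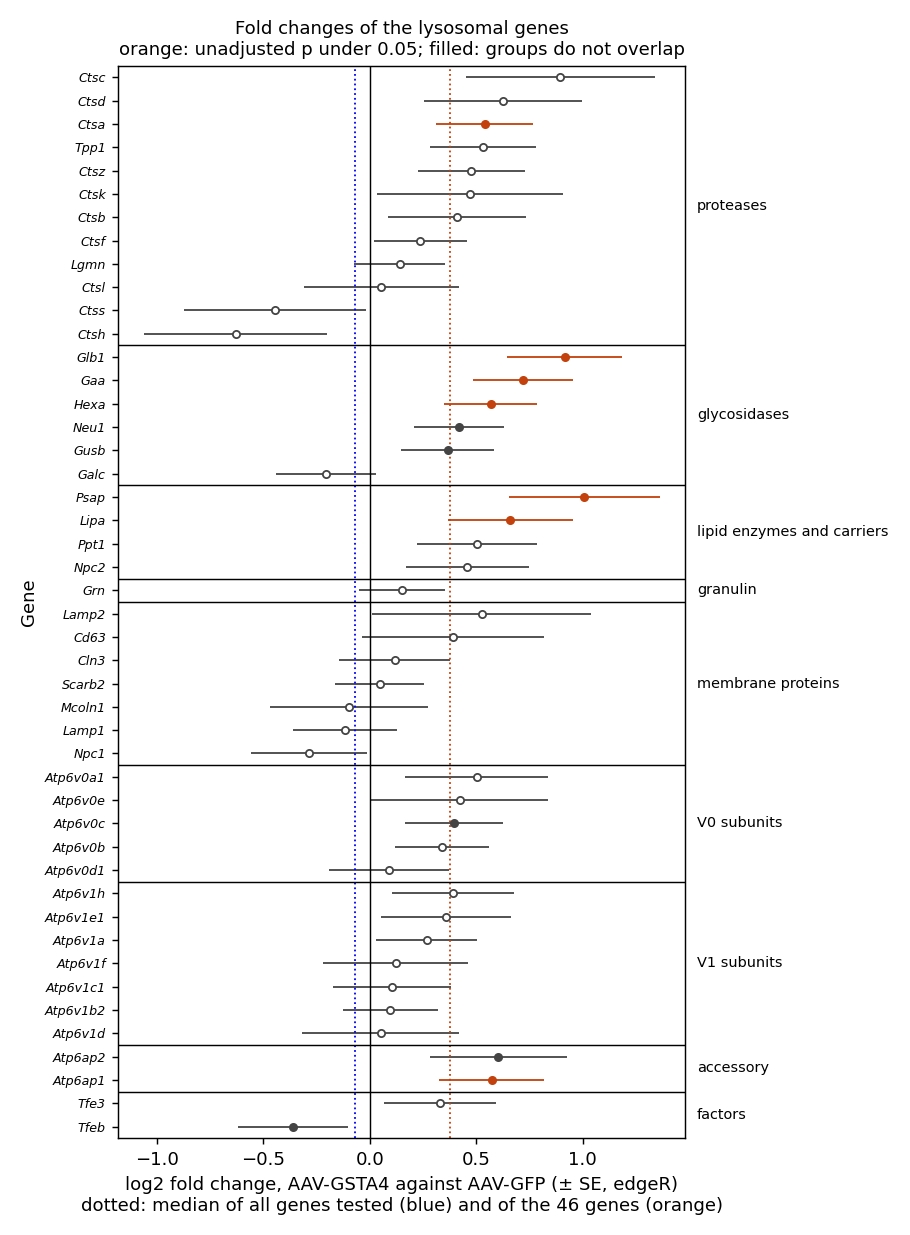
Log2 fold change of each gene, AAV-GSTA4 against AAV-GFP, with its standard error, grouped by role. Orange marks the 7 genes with an unadjusted p under 0.05, filled points mark genes whose groups did not overlap, and dotted lines mark the median of all genes tested (-0.07) and of the 46 (0.38).

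Library depth ran from 15329181 to 28998964 counts, so counting error was small beside the spread between libraries. CPM below are counts scaled to a common library total with TMM factors, which were 0.868 to 1.05 except for 1.36 in AAV-GFP replicate 3. The human transgene hGSTA4 stood at 0.0386 to 0.140 CPM in the AAV-GFP libraries, where 3 counts correspond to 0.116 to 0.144 CPM. It stood at 222, 251 and 43.7 CPM in AAV-GSTA4 replicates 1, 2 and 4, but at 2.64 CPM in replicate 3, above the controls but far below the rest of its group. All 16 RPE markers were counted in every library, with a summed level of 24815 to 74655 CPM in the AAV-GFP group and 64834 to 115388 in the AAV-GSTA4 group. Of the 16 rod photoreceptor markers, all 16 had estimates below 0 and 15 an unadjusted p under 0.05, with sums of 16686 to 43332 CPM with AAV-GFP and 8136 to 14984 with AAV-GSTA4. Lens fibre markers reached 128199 CPM in AAV-GSTA4 replicate 2 and 3130 to 27131 elsewhere. In such bulk tissue, fewer cells of a type and less RNA per cell cannot be told apart.

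The glycosidases, which strip sugars from glycoproteins, glycolipids and glycogen, held the most genes with separated groups: in 5 of 6 the AAV-GSTA4 libraries all lay above the AAV-GFP libraries (6.44% of all genes), and 3 of 6 were higher at an unadjusted p under 0.05 (5.27% of all genes). Glb1, the acid beta-galactosidase (chr9:114401076-114474898 in GRCm38, as are the positions below), was counted at 52.4, 59.7 and 30.7 CPM with AAV-GFP and at 103, 72.5, 101 and 83.0 CPM with AAV-GSTA4. The lowest AAV-GSTA4 library was above the highest AAV-GFP library, and AAV-GFP replicate 3 lay well below the other controls. Glb1 shares exon bases with Tmppe, and how reads there were assigned is not given in the sources used here. The mean was 47.6 ± 15.1 CPM (SD, n = 3) with AAV-GFP and 89.9 ± 14.7 (SD, n = 4) with AAV-GSTA4. The fitted log2 difference was 0.92 ± 0.27 (SE, 95% interval 0.31 to 1.52, 1.89-fold, edgeR adjusted p = 0.363). Gaa, the acid alpha-glucosidase that degrades glycogen (chr11:119267887-119285454), was counted at 171, 179.7 and 204 CPM with AAV-GFP and at 324, 241, 370.1 and 284 CPM with AAV-GSTA4. Here the AAV-GFP libraries lay close together and replicate 3 was the highest of them. The log2 fold change was 0.72 ± 0.23 (SE, 95% interval 0.20 to 1.24, 1.65-fold, edgeR adjusted p = 0.363).

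Hexa, the alpha subunit of beta-hexosaminidase, which cleaves GM2 ganglioside (chr9:59539540-59565109), was counted at 146, 157 and 115 CPM with AAV-GFP and at 223, 200.1, 229 and 175 CPM with AAV-GSTA4. Its groups did not overlap, with a gap of 157 to 175 CPM between them, and its log2 fold change was 0.57 ± 0.22 (SE, edgeR adjusted p = 0.383). Neu1, a sialidase, was at 35.7, 45.99 and 45.4 CPM against 58.9, 49.5, 67.9 and 50.1 CPM. Gusb, the beta-glucuronidase, was at 29.3, 30.3 and 24.3 CPM against 31.5, 34.5, 44.9 and 33.2 CPM. Both had groups that did not overlap by a narrow margin, with log2 fold changes of 0.42 ± 0.21 and 0.37 ± 0.22 (edgeR adjusted p 0.462 and 0.518). Galc, which removes galactose from galactosylceramide, ran the other way at 17.0, 18.5 and 14.0 CPM against 14.7, 14.3, 13.8 and 14.4 CPM. Its groups overlapped and its log2 fold change was -0.20 ± 0.24 (edgeR adjusted p = 0.754).

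**Figure D3:**
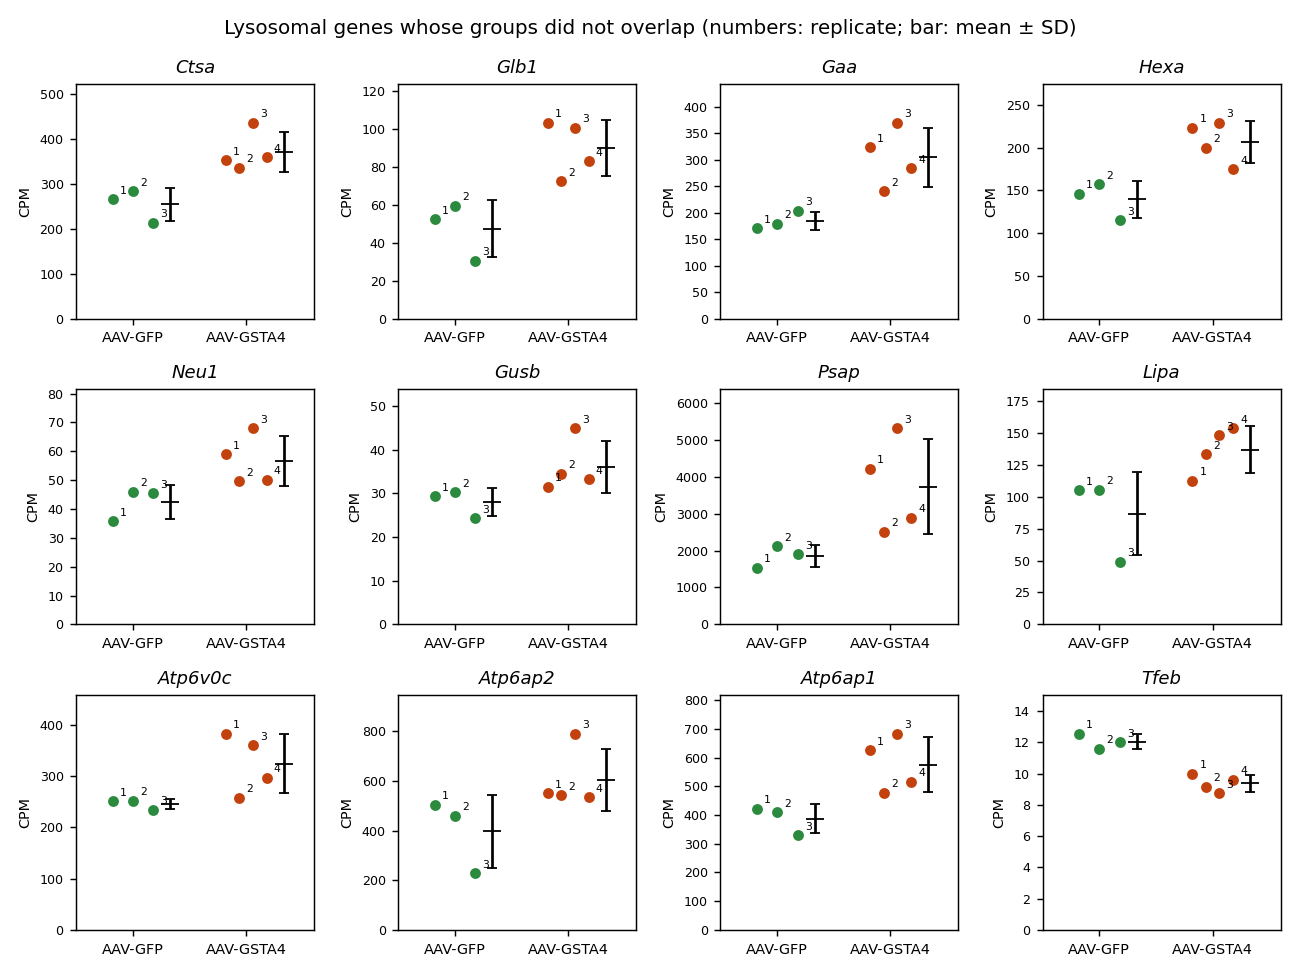
CPM in each library for the 12 genes whose groups did not overlap, with the replicate number beside each point and the mean ± SD beside it. The AAV-GSTA4 libraries lie above the AAV-GFP libraries in 11 panels, such as 72.5 to 103 CPM against 30.7 to 59.7 for Glb1, and below them for Tfeb.

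Among the lipid enzymes and carriers all 4 estimates were above 0, and Psap had the highest of the 46 genes. Psap encodes prosaposin, the precursor of the saposins that present sphingolipids to their hydrolases (chr10:60277627-60302597). It was counted at 1539, 2123 and 1905 CPM with AAV-GFP and at 4221, 2511, 5309.9 and 2888 CPM with AAV-GSTA4. All AAV-GSTA4 libraries were higher, but their spread was wide (3733 ± 1282 CPM, SD, n = 4, against 1855 ± 294.7, SD, n = 3). The log2 fold change was 1.01 ± 0.35 (SE, 95% interval 0.22 to 1.80, 2.01-fold, edgeR adjusted p = 0.373), and DESeq2 gave an adjusted p of 0.0520, the smallest of any of the 46 genes in any fit run. Lipa, the acid lipase that releases cholesterol from its esters (chr19:34492318-34527474), was at 105, 106 and 49.1 CPM with AAV-GFP and at 113, 133, 148 and 154 CPM with AAV-GSTA4. The groups were separated by 106 to 113 CPM, and the control mean was pulled down by replicate 3, at 0.466 times the mean of the other controls. Its log2 fold change was 0.66 ± 0.29 (SE, edgeR adjusted p = 0.416), and without that library it was 0.38. Npc2, which carries cholesterol inside the lysosome, was at 314, 333 and 165 CPM against 332, 354, 450.2 and 352 CPM, overlapping by 1 library (log2 fold change 0.46 ± 0.29, edgeR adjusted p = 0.539). The last of the 4, Ppt1, a thioesterase that removes palmitate from proteins, had a log2 fold change of 0.50.

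Proteases gave 10 of 12 estimates above 0 (median log2 fold change 0.44). Groups did not overlap in 1 of 12 (8.33%), near the 6.44% of all genes. That gene was Ctsa, the serine carboxypeptidase that protects beta-galactosidase and the sialidase Neu1 in a complex (chr2:164832873-164841032). Ctsa was counted at 267, 285 and 215 CPM with AAV-GFP and at 353, 336, 437 and 359.7 CPM with AAV-GSTA4, so the groups were parted by 285 to 336 CPM. Its log2 fold change was 0.54 ± 0.23 (SE, 95% interval 0.03 to 1.05, edgeR adjusted p = 0.400). Ctsd, the aspartic protease that does much of the outer segment digestion in the RPE, was at 3991, 3380.5 and 1700.0 CPM with AAV-GFP and at 4683, 3446, 5693 and 4828 CPM with AAV-GSTA4. AAV-GSTA4 replicate 2 lay among the controls, and AAV-GFP replicate 3 was far below the rest (log2 fold change 0.62 ± 0.37, edgeR adjusted p = 0.518).

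Ctsc, a dipeptidyl peptidase, had the largest estimate of the proteases, at 379, 353 and 104 CPM against 372, 410.3, 678 and 614 CPM. That estimate, 0.90 ± 0.44 (edgeR adjusted p = 0.453), came with overlapping groups and a control library at 0.283 times the mean of the other controls. Ctsh, a cysteine protease with aminopeptidase activity, had the lowest, at 99.9, 92.3 and 33.8 CPM against 23.9, 62.8, 41.1 and 66.9 CPM. Its log2 fold change was -0.63 ± 0.43 (edgeR adjusted p = 0.572), and without AAV-GFP replicate 3, where the groups no longer overlapped, it was -0.98 (edgeR adjusted p = 0.355). Ctss, the cysteine protease of antigen-presenting cells, was the only other protease with an estimate below 0 (-0.44). The 8 proteases not given by library (Ctsb, Ctsf, Ctsk, Ctsl, Ctss, Ctsz, Tpp1 and Lgmn) had log2 fold changes of -0.44 to 0.53 and unadjusted p-values of 0.0595 to 0.884. Macrophages also make several of these proteases, and the summed level of 17 macrophage and microglia markers was 1162 to 3605 CPM with AAV-GFP and 1532 to 3450 with AAV-GSTA4. The largest part of that sum came from 1 gene, Lyz2, at 664 to 2859 CPM with AAV-GFP and 715 to 2692 with AAV-GSTA4. Of the 17 markers 15 had estimates below 0 and 2 above. No marker of that list was at 0 in any library, and its part in the protease values was not tested.

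The proton pump genes had estimates above 0 in all 14 cases, but mostly small ones, with a median log2 fold change of 0.35. The 5 V0 and 7 V1 subunits together gave 0 of 12 higher at an unadjusted p under 0.05, against 5.27% of all genes. Groups were separated in 1 of 12 (8.33%), near the 6.44% of all genes. That one was Atp6v0c, the proteolipid of the proton-carrying ring, which has named pseudogenes that could share reads, at 251, 252 and 235 CPM against 383, 258, 359.8 and 297 CPM. Its lowest AAV-GSTA4 library cleared the controls only by 252 to 258 CPM, with a log2 fold change of 0.40 ± 0.23 (edgeR adjusted p = 0.506). Atp6v0a1, the large membrane subunit that anchors the stator, was at 170.1, 171 and 271 CPM against 358, 156, 359 and 282 CPM. Its AAV-GSTA4 group contained the lowest library of all, and its log2 fold change was 0.50 ± 0.33 (edgeR adjusted p = 0.561). Without AAV-GFP replicate 3 the log2 fold change of Atp6v0a1 was 0.76 (edgeR adjusted p = 0.379).

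Atp6v0e, a small V0 subunit, was at 378, 306 and 101 CPM against 276, 285, 402 and 440.4 CPM (log2 fold change 0.42 ± 0.41). Atp6v0d1, which links V0 to the central rotor, was at 111, 129.8 and 152 CPM against 171, 80.5, 153 and 155 CPM (log2 fold change 0.09 ± 0.28). The groups of both overlapped widely. In the V1 sector Atp6v1e1, a stalk subunit, was the most abundant by CPM, at 594, 608 and 308 CPM against 600.5, 525, 794 and 659.9 CPM (log2 fold change 0.36 ± 0.31). Atp6v1h, a regulatory subunit, had the largest V1 estimate, at 192, 164 and 87.1 CPM against 184, 164, 221 and 206 CPM (log2 fold change 0.39 ± 0.29). Atp6v1d, the rotor shaft, had the smallest, at 476, 327 and 151 CPM against 276, 269, 374 and 399 CPM (log2 fold change 0.05 ± 0.37, 95% interval -0.78 to 0.88). All 3 overlapped, and all 3 had AAV-GFP replicate 3 as the lowest library. The 4 V1 subunits not given by library, Atp6v1a, Atp6v1b2, Atp6v1c1 and Atp6v1f, had log2 fold changes of 0.10 to 0.27, and Atp6v0b, another ring subunit, one of 0.34.

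Both accessory proteins of the pump, by contrast, had separated groups. Atp6ap1, which takes part in assembling V0 (chrX:74297097-74304721), was at 423, 409.8 and 330.1 CPM with AAV-GFP and at 626, 479, 683 and 517 CPM with AAV-GSTA4. Every AAV-GSTA4 library was above 423 CPM, and the log2 fold change was 0.57 ± 0.25 (SE, 95% interval 0.02 to 1.13, edgeR adjusted p = 0.407). Atp6ap2, also known as the prorenin receptor, was at 504, 459 and 229 CPM with AAV-GFP and at 550.3, 542, 789.9 and 535 CPM with AAV-GSTA4. Its AAV-GSTA4 replicates 1, 2 and 4 were nearly equal and replicate 3 stood far above them (log2 fold change 0.60 ± 0.32, edgeR adjusted p = 0.480). Whether the accessory proteins differed from the V0 and V1 subunits was not tested.

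Membrane proteins of the lysosome had 4 of 7 estimates above 0 and a median log2 fold change of 0.05. No gene of the 7 had separated groups, against 6.44% of all genes above and 5.61% below. Lamp2, a glycoprotein of the limiting membrane and the receptor of chaperone-mediated autophagy, was at 1303, 883 and 217 CPM against 778, 1304, 1354 and 1176 CPM. Cd63, a tetraspanin of late endosomes and lysosomes, was at 2016, 1800.4 and 585 CPM against 1493, 1614, 2332 and 2252 CPM. In both, AAV-GSTA4 libraries lay below and above the range of AAV-GFP replicates 1 and 2, and only the 1176 CPM of Lamp2 lay inside it. AAV-GFP replicate 3 was lower than every other library, at 0.198 and 0.306 times the other controls. Their log2 fold changes were 0.53 ± 0.51 and 0.39 ± 0.43 (edgeR adjusted p 0.708 and 0.739). Npc1, the membrane cholesterol exporter, had the opposite shape, at 17.6, 19.4 and 32.5 CPM against 21.6, 17.1, 19.3 and 17.7 CPM, with AAV-GFP replicate 3 the highest library (log2 fold change -0.29 ± 0.27, edgeR adjusted p = 0.698). Lamp1, the calcium channel Mcoln1, the lysosomal receptor Scarb2 and the Batten disease protein Cln3 had log2 fold changes of -0.12 to 0.12 with unadjusted p-values of 0.643 to 0.830.

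Both transcription factors were counted at low levels. Tfeb was at 12.5, 11.6 and 12.0 CPM with AAV-GFP and at 10.00, 9.16, 8.76 and 9.59 CPM with AAV-GSTA4. It was the only one of the 46 genes for which every AAV-GSTA4 library was below every AAV-GFP library. Its mean was 12.0 ± 0.477 CPM (SD, n = 3) with AAV-GFP and 9.38 ± 0.536 (SD, n = 4) with AAV-GSTA4. The log2 fold change was -0.36 ± 0.26 (SE, 95% interval -0.94 to 0.22, edgeR adjusted p = 0.592). Tfe3 was at 23.1, 28.0 and 28.1 CPM against 44.4, 22.7, 29.6 and 36.1 CPM, with overlapping groups and a log2 fold change of 0.33 ± 0.26 (edgeR adjusted p = 0.631). These are transcript levels, whereas both factors are known to be controlled largely by phosphorylation and entry into the nucleus, which counts do not measure. Grn, the precursor of the lysosomal granulins, was at 72.9, 91.8 and 69.4 CPM against 77.8, 91.0, 99.6 and 78.4 CPM (log2 fold change 0.15 ± 0.20, edgeR adjusted p = 0.792).

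Compared per kilobase of exon (GENCODE M21 lengths, since the authors' annotation is not given in the sources used here), the level of Ctsd was the highest of the 46 genes in both groups, at 1286 ± 505 CPM per kilobase with AAV-GFP (SD, n = 3) and 1983 ± 394 with AAV-GSTA4 (SD, n = 4). Psap followed at 676 ± 107 and 1360 ± 467, then Cd63 at 398 ± 210 and 522 ± 117, and Ctsb at 333 ± 110 and 441 ± 65.8. In the AAV-GFP group Ctss came next at 290 ± 160 and Atp6v1f at 260 ± 111, and neighbours in the order from Cd63 to Atp6v1f differed by less than their spread. The lowest levels were those of Galc, at 1.11 ± 0.153 and 0.963 ± 0.0258, followed by Npc1, Tfeb and Tfe3. The lengths are those of all annotated exons merged, 14879 bases for Galc. By CPM its AAV-GFP mean of 16.5 was above the 12.0 of Tfeb. Within the AAV-GFP group the pump subunits ran from 15.2 CPM per kilobase for Atp6v1h to 260 for Atp6v1f, although the subunits work in fixed proportions in the assembled pump. Their merged exons were 9746 and 1063 bases long and their mean CPM 148 and 276, so much of that range comes from the lengths. Which transcripts were present was not tested.

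The summed level of the 46 genes was 20531, 18594 and 11464 CPM in the AAV-GFP libraries and 22617, 19837, 28943 and 24284 CPM in the AAV-GSTA4 libraries, so AAV-GSTA4 replicate 2 lay below the highest control. As a share of all counts they took 1.84% ± 0.252 (SD, n = 3) and 2.19% ± 0.299 (SD, n = 4). The order of the 7 libraries by this sum was the same as their order by the summed level of the 16 RPE markers. Much of the marker sum came from 1 gene, Rgr, at 12273 to 37709 CPM with AAV-GFP and 34371 to 61493 with AAV-GSTA4. Of the 16 markers 12 had estimates above 0 (median log2 fold change 0.57) and 4 below (Dct, Tyrp1, Pmel and Mlana). At an unadjusted p under 0.05, 5 of 16 were higher, against 5.27% of all genes. Divided by the RPE marker sum, the level of the 46 genes was 0.275, 0.313 and 0.462 with AAV-GFP and 0.263, 0.306, 0.251 and 0.254 with AAV-GSTA4, and the groups overlapped. With the log2 RPE marker sum as a term in the model, the median log2 fold change of the 46 genes was 0.06, against 0.01 for all genes. The gap between these medians was 0.05, in place of 0.45 without the term. In that fit 1 gene, Gaa, was higher at an unadjusted p under 0.05, against 4.07% of all genes. That fit held no term for rod markers. The RPE marker sum itself ran higher with AAV-GSTA4, so 7 libraries cannot cleanly separate it from the vector. The part that the share of RPE and rod RNA had in these values was not tested.

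**Figure D4:**
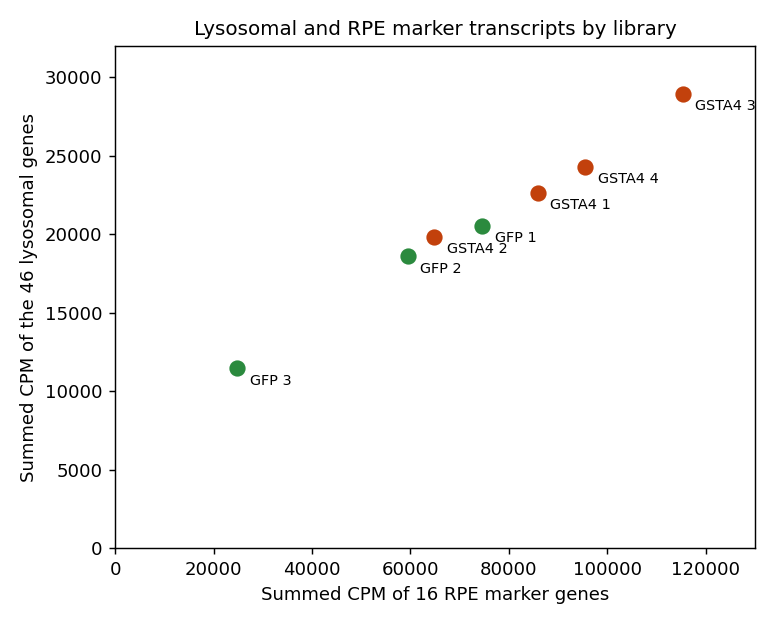
Summed CPM of the 46 lysosomal genes (vertical) against the summed level of 16 RPE marker genes (horizontal), 1 point per library. Both sums put the libraries in the same order, from AAV-GFP replicate 3 (11464 and 24815 CPM) to AAV-GSTA4 replicate 3 (28943 and 115388 CPM).

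Individual libraries weighed heavily on these genes. AAV-GFP replicate 3 was the lowest of the 7 libraries for 30 of the 46 (65.2%), against 29.4% of all genes, and its median ratio to the mean of the other controls was 0.714, against 1.01 for all genes. It was under 0.5 times the other controls for 14 of the 46 (30.4%, against 18.1% of all genes). The same library had the highest rod marker sum of the 7, 43332 CPM, and the lowest RPE marker sum, 24815 CPM. What part these had in its low values was not tested. AAV-GSTA4 replicate 3, the library with little hGSTA4, was the highest of its group for 29 (63.0%), against 22.4% of all genes. Without AAV-GFP replicate 3 the median log2 fold change was 0.20, against 0.01 for all genes, so the gap between them was 0.19 in place of 0.45. In that fit 5 genes (Atp6v0a1, Hexa, Gaa, Glb1 and Psap) were higher at an unadjusted p under 0.05, against 6.76% of all genes. Without AAV-GSTA4 replicate 3 the median was 0.32 and the gap 0.37, and 2 genes (Gaa and Glb1) were higher, against 3.21% of all genes.

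Gaa and Glb1 were at an unadjusted p under 0.05 in 16 and 17 of the 18 alternative fits, whereas Psap was in 13, Hexa in 12, Lipa in 8, and Ctsa and Atp6ap1 in 6 each. These fits reuse the same libraries, and the genes were picked by the main fit, so the counts are not independent support. Leaving out 1 library at a time, the log2 fold change was 0.62 to 0.83 for Gaa, 0.68 to 1.12 for Glb1, 0.80 to 1.17 for Psap, 0.45 to 0.67 for Hexa, 0.43 to 0.63 for Ctsa, 0.38 to 0.83 for Lipa and 0.47 to 0.67 for Atp6ap1. With library totals in place of TMM scaling, the median of all genes tested was -0.37 and that of the 46 genes 0.10, so the gap between them was 0.47 in place of 0.45. On that scale 27 of the 46 estimates were above 0, and only Glb1 was higher at an unadjusted p under 0.05, against 1.77% of all genes.

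**Figure D5:**
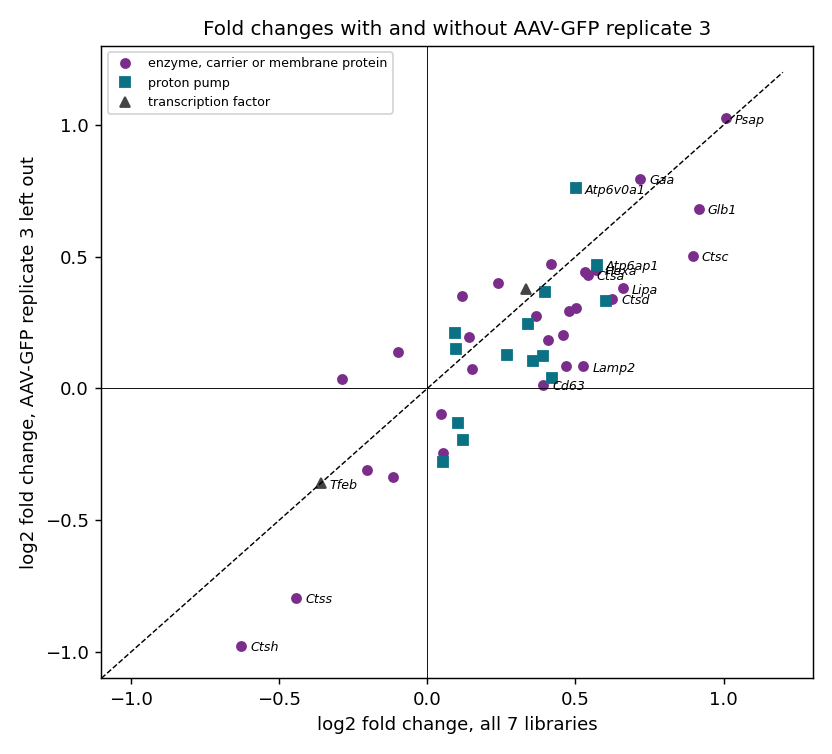
Log2 fold change of each of the 46 genes with AAV-GFP replicate 3 left out (vertical) against the value with all 7 libraries (horizontal), where the dashed line marks equal values. The median was 0.20 without that library and 0.38 with it, and Glb1 moved from 0.92 to 0.68.

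Further lysosomal genes outside the 46 had the same tendency. Of 43 other lysosomal genes tested, 34 had estimates above 0, the median log2 fold change was 0.50, and 16 were higher at an unadjusted p under 0.05 (37.2%, against 5.27% of all genes), with none past the adjusted threshold. Of the 9 other proton pump subunits tested, 1 was higher, Atp6v0a2 (11.1%). Of 16 genes of the TFEB family and its mTORC1 control, 1 was, Mtor (6.25%, near the 5.27% of all genes). Idua, the alpha-L-iduronidase that degrades heparan and dermatan sulfate, was at 33.5 ± 5.16 CPM with AAV-GFP (SD, n = 3) and 56.0 ± 6.43 with AAV-GSTA4 (SD, n = 4). Its fitted log2 difference was 0.74 ± 0.21 (edgeR adjusted p = 0.363), and DESeq2 gave Idua an adjusted p of 0.0495. Arsb, the arylsulfatase that acts on dermatan sulfate, had a log2 fold change of 0.65 ± 0.20. Atp6v0a2, an alternative to Atp6v0a1 in the pump, was at 52.3 ± 7.54 against 83.3 ± 6.68 CPM (0.67 ± 0.20), and Mtor, the kinase that holds TFEB in the cytosol, at 65.2 ± 11.04 against 108 ± 14.1 CPM (0.73 ± 0.21). Acp2, Tmem175, Smpd1, Ids and Abca2 also had separated groups, with log2 fold changes of 0.56, 0.68, 0.72, 0.64 and 0.70, and the edgeR adjusted p-values of the genes named here were 0.363 to 0.384.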

How the data were processed

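The authors deposited raw read counts per gene symbol in 1 table of 21861 rows and 7 library columns, all of which matched a sample by its library name (0 columns without a sample). Libraries came from polyadenylated RNA amplified as full-length cDNA, and no molecular identifiers are mentioned. The part that amplification had in the counts was not tested. The intervals given for fold changes come from the edgeR fit and carry the spread between libraries as well as counting error. STAR 2.7.1a and featureCounts 1.6.2 are named in the submitters' processing notes, which list human and mouse builds with no role. The strand setting, the handling of multi-mapping reads and the annotation release are not given in the sources used here. Exons of Lamp1, Ctsa, Ctsb, Ctsd, Ctsz, Atp6v1e1, Atp6v1h, Hexa, Glb1, Npc1, Ppt1, Cln3 and Grn overlap those of other genes in the table (GENCODE M21), and Atp6v0c and Cd63 have named pseudogenes, so their counts are uncertain to that extent.

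The counts were fitted with edgeR 4.0.16 (R 4.3.3): TMM scaling, the default expression filter, group as the only factor, and a quasi-likelihood test with Benjamini-Hochberg adjustment over 15075 genes at 0.05. CPM values are TMM-scaled unless a share of all counts is named, and SD and SE follow each value. The code was tested on simulated data. The 46 genes and the gene lists were chosen with earlier results of these data known. Values by library are given for genes with an unadjusted p under 0.05 or separated groups, and for the most abundant gene and the highest and lowest fold change of each role class, 28 of the 46. Up to 10 genes of other lists, by smallest p, are named where the unadjusted p was under 0.05 and the groups did not overlap. A result of 1 gene that this rule would name is not reported here. Every library differed from every other by more than counting noise (chi-square per gene at least 57.5 over 21 pairs). Alternatives were other scalings and filters, DESeq2 1.42.0, limma-voom (limma 3.58.1), replicate blocks, each library left out, and 3 fits added after seeing the data: without AAV-GFP replicate 3 and AAV-GSTA4 replicate 2, with a term for the level of Y-linked genes, and with a term for RPE markers. Promoter sequences are RefSeq's (GRCm38.p6).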

Additional observations from a re-analysis of the deposited data

Results flagged for a closer look

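Atp6ap2 in the AAV-GSTA4 group had 1 library far from the others: replicate 3, at 789.9 CPM, was separated from the next by 0.940 of the group's whole range, above Dixon's 95% critical value for 4 samples. It was the only gene of the 46 genes for which this happened in that group, and chance flags about 5% of such groups.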

How the results depend on the processing

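None of the 46 genes passed the adjusted threshold in any of the 18 alternatives. For the 28 genes given by library, which were chosen partly by their values, 483 of 504 values kept their direction and call and 21 changed sign. Of all 46 genes, 21 kept their direction in every alternative. Of the 46, 16 changed sign with the RPE marker term, 12 with library totals and 7 without AAV-GFP replicate 3. With library totals 1 of the 46 was higher at an unadjusted p under 0.05, against 1.77% of all genes. Groups were separated above for 2 and below for 3, against 304 and 1804 of all 15075 genes. The median was 0.10, 0 other lysosomal genes were higher, and Atp6v0d1, Atp6v1d and Grn were at -0.23, -0.17 and -0.14. Whether equal replicate numbers pair libraries is not stated. Deviations of same-numbered libraries correlated at -0.09 to 0.01 by title and -0.13 to 0.01 by library name. By title 0 and by library name 1 of 3 pairs correlated best with their own number. So few pairs cannot decide whether the libraries were paired. With a replicate block by title number, 1 gene of all passed the adjusted threshold and Atp6v0d1 was at -0.021. In that fit 1 of the 46 and 3 other lysosomal genes were higher, against 1.94% of all genes. With a block by library name number, 1 gene of all passed and 3 of the 46 were higher, against 3.74% of all genes. DESeq2 called 199 genes of all. In limma-voom 11 of the 46 were higher and 1 lower, against 1560 and 1733 of all 15075 genes. Without AAV-GFP replicate 3 and AAV-GSTA4 replicate 2 together, 11 were higher and 1 lower, against 1323 and 965 of all 15030 genes. Groups were separated above for 21 and below for 6, against 2891 and 2525 of all 15030 genes. Atp6v1d and Npc1 were at -0.19 and 0.085. With the Y-linked term 4 were higher, against 4.56% of all genes, and Atp6v1d was at -0.0098. With the RPE marker term 1 was higher and 2 lower, against 614 and 800 of all 15075 genes. The median was 0.060, and 2 other lysosomal genes were higher. In that fit Lamp2, Ctsd, Atp6v0e, Atp6v1d, Atp6v1e1, Atp6v1h, Npc1, Npc2 and Cd63 were at -0.20, -0.010, -0.37, -0.64, -0.18, -0.14, 0.15, -0.0034 and -0.38. Leaving out 1 library at a time, 0 to 1 genes of all passed. Of the 46, 2 to 8 were higher, against 3.21% to 6.76% of all genes, and 0 to 2 lower, against 551 to 1135 genes. Groups were separated above for 13 to 20, against 8.29% to 12.7% of all genes. They were separated below for 1 to 5, against 934 to 1830 of the 14785 to 15599 genes tested. In these fits 4 to 14 other lysosomal genes were higher. Atp6v0d1, Atp6v1d and Npc1 ran from -0.0074 to 0.29, -0.28 to 0.47 and -0.44 to 0.037. The lowest counts of higher and of other lysosomal genes came without AAV-GSTA4 replicate 3. Fewer libraries also separate more easily. Otherwise the cause of these shifts was not tested. With 3 and 4 libraries the spread between libraries, not depth, limits these values.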

Other observations

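Over the 7 libraries, Ctsd and Atp6ap2 had the highest median Pearson correlation of log2 CPM with the other 45 genes, 0.813 and 0.800, and Npc1, Mcoln1 and Tfeb the lowest, -0.63, -0.56 and -0.55. These are descriptions over 7 libraries, with no test, and all genes share each library's depth and scaling. A single library can weigh heavily on them. AAV-GFP replicate 3 stood at 0.461 and 0.476 times the other controls for Ctsd and Atp6ap2. For Npc1, Mcoln1 and Tfeb it stood at 1.76, 1.53 and 0.995 times. Mcoln1, the calcium channel, spread widely within AAV-GSTA4, at 67.3, 49.0, 21.2 and 32.3 CPM, and was lowest in replicate 3, the library in which 29 of the 46 genes were highest of their group.

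Macrophage and microglia markers mostly had estimates below 0: 15 of the 17 were below 0 and 2 above (median log2 fold change -0.42). At an unadjusted p under 0.05, 3 of the 17 were lower (C1qc, Aif1 and Adgre1), against 6.63% of all genes. Csf1r, 1 of the 17, was higher (log2 fold change 1.11), against 5.27% of all genes.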
